A study of Mus musculus with 15 samples.

Results

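The genes described here are 10 enzymes and enzyme subunits of ceramide and sphingolipid metabolism: Sptlc1, Sptlc2, Cers2, Cers4, Cers5, Cers6, Degs1, Asah1, Smpd1 and Sgms1. They were chosen by gene symbol, and all 10 were found among the 23995 symbols of the files. RNA was sequenced from the fat around the prostate of 15 male C57BL/6 mice killed at 26 weeks of age, 5 in each of 3 groups. HFD estradiol mice ate a high-fat diet (60 kcal% fat) and carried a pellet with 0.25 mg of 17β-estradiol released over 60 days. HFD placebo mice ate that diet and carried a placebo pellet. LFD mice ate a low-fat diet (10 kcal% fat) and received no implant, so diet and pellet surgery differ together between LFD and the other groups. Diets started at 6 weeks of age, and pellets were placed after 12 weeks of feeding and 8 weeks before tissue was taken. The labels name no genetic alteration. The labels number the mice within each group, and a library is named here by its group and that number, as in placebo 4.

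Ceramide is the lipid from which other sphingolipids are made. Serine palmitoyltransferase, a complex of Sptlc1 and Sptlc2, joins serine to palmitoyl-CoA in the endoplasmic reticulum. Ceramide synthases then attach a fatty acid to the sphingoid base, and each prefers certain chain lengths: Cers2 very long chains, Cers4 long to very long chains, and Cers5 and Cers6 palmitoyl chains. Degs1 introduces the double bond that turns dihydroceramide into ceramide. Sgms1 converts ceramide to sphingomyelin in the Golgi, Smpd1 (acid sphingomyelinase) returns sphingomyelin to ceramide in the lysosome, and Asah1 (acid ceramidase) splits ceramide there into sphingosine and a fatty acid. In obese rodents, ceramides in fat and liver have been linked to insulin resistance, with Cers6 as a source of the palmitoyl form.

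Promoter sequences were examined because lysosomal enzyme genes often carry the E-box CACGTG, a palindrome bound by helix-loop-helix factors such as TFEB and MYC. RefSeq windows of 300 bases on GRCm38.p6, from 250 bases before to 50 after a start site, were given for 9 of the 10 genes, 13 windows in all. Asah1 had no window. CACGTG, which reads the same on both strands, was found in 3 of the 9 genes, against 8.09% of 27025 genes and 7.15% of 32851 windows in the whole table. None of the 3, Degs1, Cers6 and Cers2, encodes a lysosomal enzyme. The window of Smpd1, the only lysosomal enzyme with one, had no E-box. The CLEAR element of lysosomal genes was searched only as an exact longer palindrome that contains CACGTG. That exact string was in 0 of the 13 windows and in 0.326% of all windows, and inexact matches to the element were not counted. The 3 windows with the E-box are shown 5′ to 3′ on the strand of the gene, with CACGTG in capitals, because they include those of Degs1 and Cers6, on which several results turn.
Degs1 (chr1:182282146-182282445, minus strand): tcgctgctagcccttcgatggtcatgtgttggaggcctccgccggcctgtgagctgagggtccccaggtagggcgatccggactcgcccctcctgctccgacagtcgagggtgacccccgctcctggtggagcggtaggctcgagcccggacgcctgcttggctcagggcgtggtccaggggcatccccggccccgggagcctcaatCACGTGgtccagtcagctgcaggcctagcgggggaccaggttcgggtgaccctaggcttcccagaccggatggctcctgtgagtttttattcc
Cers6 (chr2:68861191-68861490, plus strand): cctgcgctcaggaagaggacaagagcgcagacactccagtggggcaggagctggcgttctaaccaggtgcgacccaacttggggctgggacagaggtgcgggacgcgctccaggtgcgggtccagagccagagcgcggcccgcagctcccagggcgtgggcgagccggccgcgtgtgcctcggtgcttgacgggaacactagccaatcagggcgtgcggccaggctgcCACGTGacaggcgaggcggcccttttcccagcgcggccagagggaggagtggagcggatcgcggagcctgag
Cers2 (chr3:95314940-95315239, plus strand): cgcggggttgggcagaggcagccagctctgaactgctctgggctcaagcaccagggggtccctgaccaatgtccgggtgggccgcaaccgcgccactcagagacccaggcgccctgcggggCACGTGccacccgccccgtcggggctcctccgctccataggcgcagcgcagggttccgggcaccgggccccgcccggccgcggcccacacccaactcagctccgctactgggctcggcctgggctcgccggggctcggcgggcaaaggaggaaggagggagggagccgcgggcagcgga
The E-box began at position -43 from the RefSeq start of Degs1, at -22 in Cers6 and at -129 in Cers2. In the GENCODE vM21 gene models the Cers6 motif lay outside the gene, just before its 5′ end. The Degs1 and Cers2 motifs lay in introns, since those gene models begin 609 and 399 bases before the RefSeq starts used here. A match of letters is a description of sequence and says nothing of whether a factor was bound in this fat.

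Levels are given as scaled FPKM: the deposited FPKM, which relate fragments to transcript length and sequencing depth, divided by 1 median-of-ratios factor per library. Summed deposited FPKM were 37561 to 60725 in HFD estradiol, 34544 to 105910 in HFD placebo and 34449 to 38755 in LFD libraries, with placebo 4 and placebo 5 highest. For a transcript of 2 kb, 1 scaled FPKM stood for an estimated 36.6 to 96.4 fragments in HFD estradiol, 34.9 to 221 in HFD placebo and 20.6 to 40.1 in LFD libraries. The file names place all HFD estradiol libraries on sequencing lane 6, all LFD libraries on lane 5, and HFD placebo libraries 1 to 3 on lane 5 and 4 and 5 on lane 6. Of 12 defining adipocyte genes 0 were listed at 0 throughout a group. Their group means ran from 1.66 scaled FPKM (Slc2a4, HFD placebo) to 1081 (Fabp4, LFD). The sum of 7 prostate epithelium markers was at most 0.640 in HFD estradiol, 0.351 in HFD placebo and 3.40 in LFD libraries, with an LFD median of 0.277. Hoxb13, at 0 in all libraries of the high-fat groups, reached 1.08 in LFD fat. Whether prostate tissue was carried over there was not tested. The p-values set each group difference against the spread between libraries, each from its own mouse. In the HFD placebo group that spread also holds differences of lane and depth.

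Per unit of transcript length, Degs1 had the highest mean of the 10 genes in HFD estradiol and in HFD placebo fat, and Cers2 the highest in LFD fat. Degs1 averaged 7.44 ± 1.68 scaled FPKM in HFD estradiol, 9.30 ± 0.537 in HFD placebo and 6.08 ± 0.860 in LFD fat (SD, n = 5 each, as for every mean here). Cers2 averaged 5.80 ± 0.972 in HFD estradiol, 5.54 ± 0.357 in HFD placebo and 6.53 ± 0.693 in LFD fat, and its libraries overlapped those of Degs1 in HFD estradiol and LFD fat. Among the ceramide synthases the order of means was Cers2, Cers5, Cers6 and Cers4 in all 3 groups. Cers4 was the lowest ceramide synthase, at 0.805 ± 0.0927 in HFD estradiol, 0.960 ± 0.181 in HFD placebo and 1.05 ± 0.199 in LFD fat. The next synthase in the order, Cers6, overlapped Cers4 in all 3 groups. Sptlc1 and Sptlc2, the subunits of the first enzyme, lay between 0.789 and 1.63 in all 15 libraries. All 10 genes passed the filter of at least 1 scaled FPKM in at least 5 libraries and were tested, Cers4 with 2 HFD placebo and 3 LFD libraries.

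**Figure D1:**
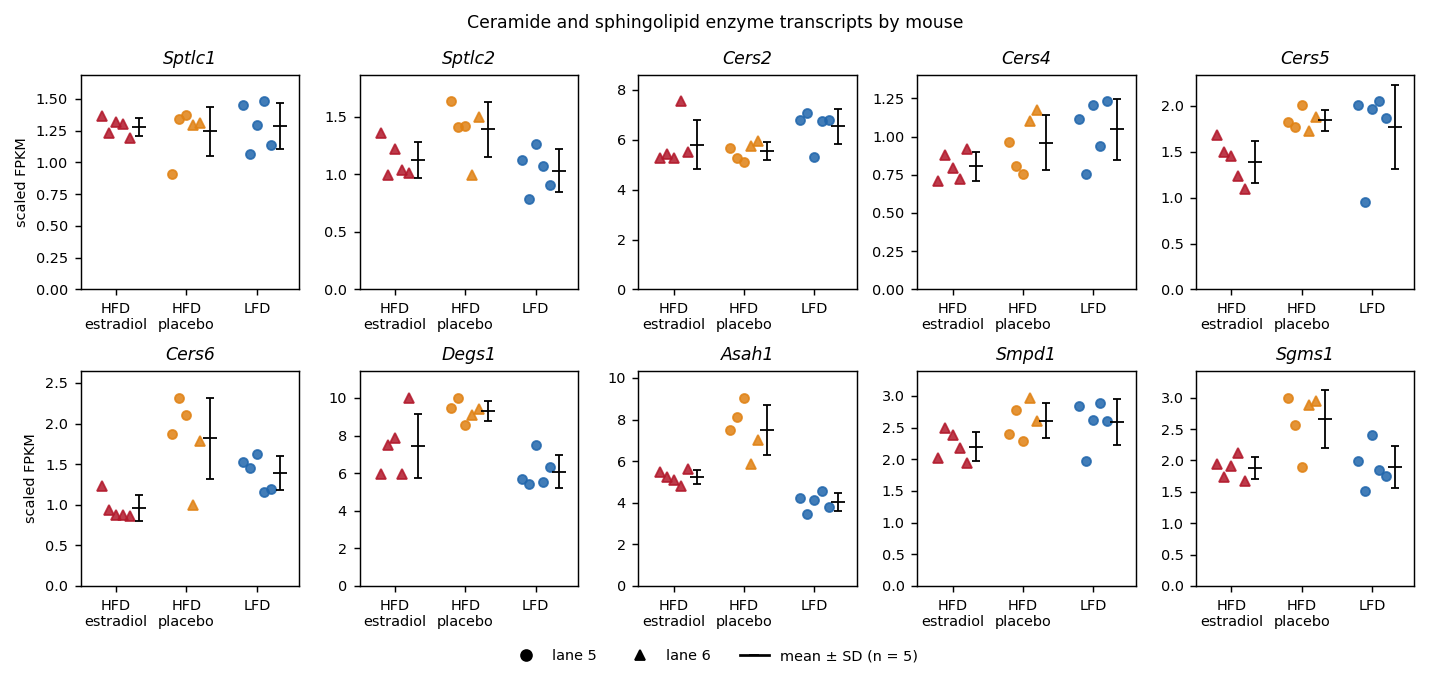
Scaled FPKM (y axis, from 0) of the 10 genes in each mouse, with HFD estradiol, HFD placebo and LFD groups along the x axis, circles for lane 5, triangles for lane 6 and bars for mean ± SD (n = 5). Asah1 and Degs1 show all HFD placebo mice above all LFD mice, and Asah1 and Cers5 show all HFD estradiol mice below all HFD placebo mice.

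Setting HFD placebo fat against LFD fat tests how these transcripts differed with the high-fat diet and the pellet procedure together. Of the 10 genes 4 rose and 0 fell: Asah1, Degs1, Sgms1 and Sptlc2. They are the lysosomal ceramidase, the desaturase that completes ceramide, the sphingomyelin synthase and a subunit of serine palmitoyltransferase. The 4 ceramide synthases, Sptlc1 and Smpd1 did not pass the test. A call is a limma adjusted p below 0.05 by Benjamini and Hochberg over all 5625 tested genes, and 43.2% of those genes were called in this comparison, 21.3% as higher and 21.9% as lower. The 4 of 10 is therefore close to the share of all genes called, although all 4 were higher. The median log2 fold change was 0.14 over the 10 genes and -0.014 over all tested genes.

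Asah1 had the largest difference of the 10. It stood at 7.50, 8.14, 9.05, 5.85 and 7.03 scaled FPKM in HFD placebo libraries 1 to 5, against 4.23, 3.47, 4.13, 4.58 and 3.81 in LFD libraries 1 to 5. Every HFD placebo mouse was above every LFD mouse. The log2 fold change, on the scale of log2(scaled FPKM + 1) used for all folds here, was 0.75 (SE 0.0947, limma adjusted p = 1.5e-05). Degs1 stood at 9.48, 9.99, 8.54, 9.08 and 9.42 in HFD placebo, against 5.68, 5.42, 7.50, 5.52 and 6.30 in LFD libraries. These groups also did not overlap, with LFD 3 the LFD library nearest to the placebo range (log2 fold change 0.55, SE 0.119, limma adjusted p = 0.00159). Groups did not overlap for 2 of the 10 genes, both higher, against 27.6% of all tested genes (14.6% higher and 13% lower). In bulk tissue such as this, a change in the number of cells that carry a transcript and a change in RNA per cell cannot be told apart.

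Sgms1 stood at 3.00, 2.57, 1.89, 2.89 and 2.96 scaled FPKM in HFD placebo and at 2.00, 1.51, 2.41, 1.84 and 1.75 in LFD libraries. Placebo 3 lay within the LFD range and the other 4 placebo libraries above it (log2 fold change 0.33, SE 0.0951, limma adjusted p = 0.00997). Sptlc2 stood at 1.63, 1.42, 1.42, 0.992 and 1.50 in HFD placebo and at 1.12, 0.789, 1.27, 1.07 and 0.909 in LFD libraries. Placebo 4 lay within the LFD range and the other 4 above it (log2 fold change 0.23, SE 0.0817, limma adjusted p = 0.0297). Its partner Sptlc1 averaged 1.25 ± 0.193 in HFD placebo and 1.29 ± 0.184 in LFD fat, with a difference of -0.027 (95% interval -0.17 to 0.12, limma adjusted p = 0.778).

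The call for Sptlc2 was the least stable of the 4. Its limma adjusted p was 0.0786 without LFD 2, 0.0667 without LFD 5, 0.0776 without placebo 1, 0.0545 without placebo 2, 0.0557 without placebo 3 and 0.0667 without placebo 5. With a pseudocount of 0.1 its log2 fold change was 0.40. Within lane 5, where 3 HFD placebo libraries meet the 5 LFD libraries, the log2 fold changes were 0.87 for Asah1, 0.55 for Degs1, 0.30 for Sptlc2 and 0.26 for Sgms1, and the limma adjusted p of Sgms1 was 0.137. With only placebo 4 and placebo 5 left out, Sgms1 was at 0.26 (limma adjusted p = 0.0736).

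None of the 4 ceramide synthases passed the test. Cers6 stood at 1.87, 2.32, 2.11, 1.00 and 1.78 scaled FPKM in HFD placebo and at 1.53, 1.46, 1.62, 1.15 and 1.20 in LFD libraries. Placebo 4 was below all LFD libraries and the other 4 placebo libraries were above all of them (log2 fold change 0.22, limma adjusted p = 0.122). Without placebo 4 the log2 fold change of Cers6 was 0.34 (limma adjusted p = 0.00279), and within lane 5 it was 0.38 (limma adjusted p = 0.00982). Cers2 averaged 5.54 ± 0.357 in HFD placebo and 6.53 ± 0.693 in LFD fat, a difference of -0.20 (95% interval -0.40 to 0.00053, limma adjusted p = 0.0992). Cers2 passed the threshold without LFD 3, at -0.26 (limma adjusted p = 0.0296), and without estradiol 4, at -0.20 (limma adjusted p = 0.0448).

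Differences for the remaining synthases and for Smpd1 were small in this comparison. Cers5 averaged 1.84 ± 0.112 in HFD placebo and 1.77 ± 0.460 in LFD fat (log2 fold change 0.055, 95% interval -0.17 to 0.28). Cers4 differed by -0.063 (95% interval -0.23 to 0.10). Smpd1 averaged 2.61 ± 0.277 in HFD placebo and 2.59 ± 0.370 in LFD fat (log2 fold change 0.011, 95% interval -0.16 to 0.18). The scaling of libraries matters here: with FPKM as deposited the median of all tested genes was 0.77 higher in HFD placebo fat, and Sptlc1, Cers2 and Cers4 turned positive, while the 4 called genes stayed positive and called.

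**Figure D2:**
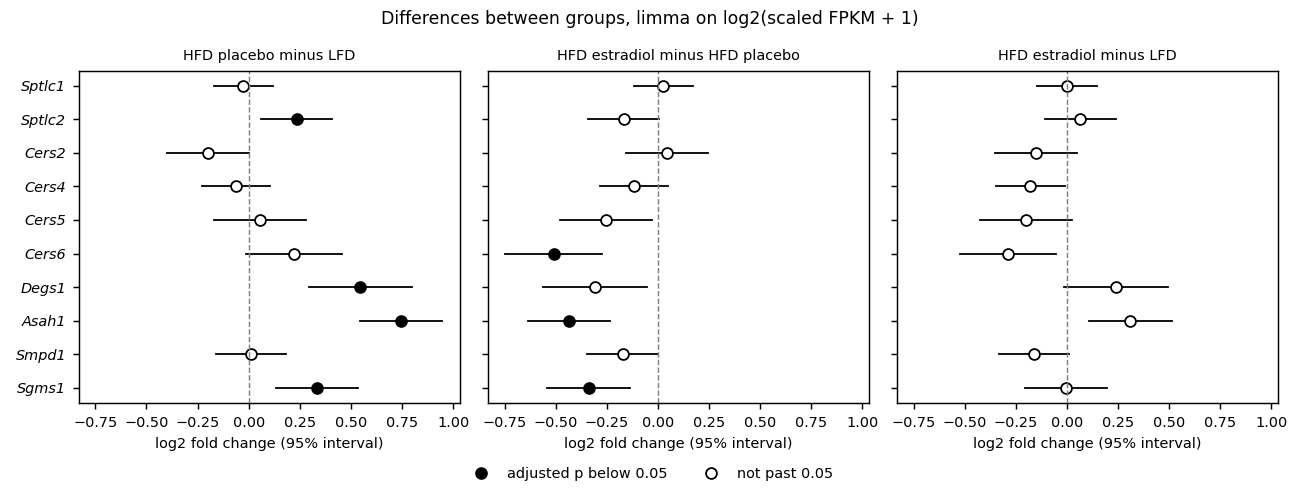
Log2 fold change with its 95% interval (x axis, log2(scaled FPKM + 1)) of each of the 10 genes (y axis) in the 3 comparisons, with filled points for a limma adjusted p below 0.05. The filled points number 4 on the positive side in the first panel, 3 on the negative side in the middle panel and 0 in the last.

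HFD estradiol against HFD placebo fat sets estradiol against placebo pellets on the same diet. Of the 10 genes 3 fell and 0 rose: Cers6, Asah1 and Sgms1. Over all tested genes 30.4% were called, 14.3% as higher and 16.1% as lower. The median log2 fold change was -0.21 over the 10 genes and 0.0078 over all tested genes. HFD placebo fat serves in this comparison and in the first, so their directions are not independent, and the values of each are given side by side only as such.

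Cers6, the palmitoyl-preferring synthase, showed the largest difference. It stood at 1.24, 0.930, 0.879, 0.876 and 0.856 scaled FPKM in HFD estradiol libraries 1 to 5, against 1.87, 2.32, 2.11, 1.00 and 1.78 in HFD placebo libraries 1 to 5. Of the HFD estradiol libraries 4 lay below every placebo library, and estradiol 1 lay above placebo 4. The log2 fold change was -0.51 (SE 0.111, limma adjusted p = 0.00239), and with a pseudocount of 0.1 it was -0.82. Asah1 stood at 5.49, 5.23, 5.08, 4.79 and 5.64 in HFD estradiol, against 7.50, 8.14, 9.05, 5.85 and 7.03 in HFD placebo libraries. Every HFD estradiol mouse was below every HFD placebo mouse (log2 fold change -0.44, SE 0.0947, limma adjusted p = 0.00235). Sgms1 stood at 1.95, 1.74, 1.91, 2.12 and 1.67 in HFD estradiol, against 3.00, 2.57, 1.89, 2.89 and 2.96 in HFD placebo libraries. Placebo 3 lay inside the HFD estradiol range and the other 4 placebo libraries above it (log2 fold change -0.34, SE 0.0951, limma adjusted p = 0.0129).

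Lane and treatment are largely confounded in this comparison, because all HFD estradiol libraries were on lane 6. Within the HFD placebo group, Asah1 averaged 6.44 in the 2 lane 6 libraries and 8.23 in the 3 lane 5 libraries, and Cers6 averaged 1.39 and 2.10. Against the 2 lane 6 placebo libraries alone, the log2 fold change was -0.28 for Cers6 (limma adjusted p = 0.206), -0.25 for Asah1 (limma adjusted p = 0.162) and -0.45 for Sgms1 (limma adjusted p = 0.0137). With lane as a term over all libraries the differences were the same and Sgms1 alone of the 3 was called (limma adjusted p = 0.0258). Without those 2 libraries the differences were -0.67 for Cers6 (limma adjusted p = 5.7e-05), -0.56 for Asah1 (limma adjusted p = 3.1e-04) and -0.27 for Sgms1 (limma adjusted p = 0.0865). With FPKM as deposited none of the 3 was called, although all 3 stayed negative, with limma adjusted p of 0.174 for Cers6, 0.504 for Asah1 and 0.486 for Sgms1. At a constant FPKM sum Cers6 was called (limma adjusted p = 0.00219), and Asah1 (limma adjusted p = 0.0631) and Sgms1 (limma adjusted p = 0.106) were not.

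Cers5, the other palmitoyl-preferring synthase, did not pass the test, although its groups did not overlap. It stood at 1.68, 1.50, 1.45, 1.24 and 1.10 scaled FPKM in HFD estradiol, against 1.82, 1.77, 2.01, 1.72 and 1.88 in HFD placebo libraries. The log2 fold change was -0.25 (SE 0.106, limma adjusted p = 0.0833), and without LFD 2, which enters the shared spread, the adjusted p was 0.00646. Groups did not overlap for 2 of the 10 genes, Cers5 and Asah1, both lower, against 21.2% of all tested genes (10.0% higher and 11.2% lower). Degs1 stood at 5.94, 7.47, 7.87, 5.94 and 10.0 in HFD estradiol, against 9.48, 9.99, 8.54, 9.08 and 9.42 in HFD placebo libraries. Estradiol 5 was above all placebo libraries and the other 4 below all of them (log2 fold change -0.31, limma adjusted p = 0.0625). Without estradiol 5 the difference was -0.41 (limma adjusted p = 0.00854), and without LFD 3 it was -0.31 (limma adjusted p = 0.0495).

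The remaining 5 genes did not pass in this comparison. Smpd1 averaged 2.20 ± 0.234 in HFD estradiol and 2.61 ± 0.277 in HFD placebo fat (log2 fold change -0.17, limma adjusted p = 0.124). Sptlc2 averaged 1.12 ± 0.160 in HFD estradiol and 1.39 ± 0.240 in HFD placebo fat (log2 fold change -0.17, limma adjusted p = 0.137), and without placebo 4 the difference was -0.23 (limma adjusted p = 0.0250). Cers4 differed by -0.12 (95% interval -0.28 to 0.051). Cers2 differed by 0.047 (95% interval -0.15 to 0.25) and Sptlc1 by 0.027 (95% interval -0.12 to 0.17). The signs of Cers2 and Sptlc1 turned negative with FPKM as deposited, at a constant FPKM sum and within lane 6.

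HFD estradiol against LFD fat sets the treated high-fat group against mice with neither the diet nor a pellet. None of the 10 genes was called by limma, against 7.7% of all tested genes (3.96% higher and 3.73% lower), and 3 had an unadjusted p below 0.05: Asah1, Cers6 and Cers4. Asah1 was the exception to overlapping groups, with 5.25 ± 0.336 scaled FPKM in HFD estradiol and 4.05 ± 0.423 in LFD fat. Every HFD estradiol mouse was above every LFD mouse for it (log2 fold change 0.31, 95% interval 0.11 to 0.51, limma adjusted p = 0.0579), a separation shown by 8.07% of all tested genes, 4.21% higher and 3.86% lower. Cers6 averaged 0.956 ± 0.159 in HFD estradiol and 1.39 ± 0.207 in LFD fat, and 4 of 5 HFD estradiol libraries lay below all LFD libraries (log2 fold change -0.29, 95% interval -0.53 to -0.054, limma adjusted p = 0.134). Cers4 averaged 0.805 ± 0.0927 and 1.05 ± 0.199 in those groups (log2 fold change -0.18, limma adjusted p = 0.20). On the unscaled FPKM, with a median over all tested genes of 0.49, Cers6 was at 0.16 and Cers4 at 0.19, and with lane as a term Cers6 was at 0.10.

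Several calls appear in this comparison under other settings. Without placebo 4, Asah1 (limma adjusted p = 0.0241) and Cers6 (limma adjusted p = 0.0245) passed, and Asah1 also passed without placebo 3 (limma adjusted p = 0.0407). Placebo libraries enter this comparison only through the shared spread, and the log2 fold changes stayed at 0.31 for Asah1 and -0.29 for Cers6. Cers5 passed without LFD 2, at -0.32 (limma adjusted p = 0.0114), against -0.20 with it (limma adjusted p = 0.299). HFD estradiol and LFD libraries share no lane, so lane and group cannot be told apart here except through the placebo libraries. Sgms1 differed by -0.0052 (95% interval -0.21 to 0.20), Sptlc1 by 0.00025 (95% interval -0.14 to 0.15) and Degs1 by 0.24 (95% interval -0.013 to 0.49).

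Ratios of 2 genes within a library do not depend on how libraries are scaled, so 6 pairs were compared, with 18 exact two-sided permutation tests. No such test of 5 mice against 5 can give a p under 0.00794, and none of the 18 had a Benjamini-Hochberg adjusted p below 0.05. Even complete separation of the groups, at that smallest p, left an adjusted p of 0.0714. The lack of calls is therefore not read as a lack of difference. The ratio of Cers6 to Cers2, palmitoyl-preferring over very-long-chain synthase, was 0.234, 0.171, 0.167, 0.116 and 0.156 in HFD estradiol, against 0.332, 0.440, 0.415, 0.174 and 0.299 in HFD placebo libraries. Placebo 4 again lay inside the HFD estradiol range. The mean log2 ratio was -2.60 in HFD estradiol and -1.66 in HFD placebo fat, a difference of -0.94 (exact permutation p = 0.0159, adjusted p = 0.0714). In LFD fat the mean log2 ratio was -2.24, so HFD placebo minus LFD was 0.58 (exact permutation p = 0.0873, adjusted p = 0.206). That difference was 0.89 within lane 5 (exact permutation p = 0.0357) and 0.79 without placebo 4 (exact permutation p = 0.0317), both unadjusted. The lane 5 value is the smallest that such a test of 3 mice against 5 can give. Cers5 to Cers2 differed by -0.47 between HFD estradiol and HFD placebo fat (exact permutation p = 0.0238, adjusted p = 0.0857). Within lane 6 the difference was -0.47 for Cers6 to Cers2 (exact permutation p = 0.190) and -0.36 for Cers5 to Cers2 (exact permutation p = 0.286). With 5 HFD estradiol and 2 HFD placebo libraries on that lane, no outcome of this test could fall below 0.05. These lane 6 p-values therefore decide nothing.

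The ratio of Asah1 to Smpd1, the lysosomal enzyme that consumes ceramide over the lysosomal enzyme that releases it, separated both high-fat groups from LFD. It was 2.72, 2.10, 2.14, 2.20 and 2.91 in HFD estradiol, 3.13, 2.93, 3.96, 1.97 and 2.70 in HFD placebo, and 1.49, 1.77, 1.57, 1.58 and 1.46 in LFD libraries. Every library of the high-fat groups was above every LFD library. The log2 difference was 0.87 for HFD placebo minus LFD and 0.61 for HFD estradiol minus LFD, each with the smallest possible exact permutation p = 0.00794 and an adjusted p = 0.0714. HFD estradiol and HFD placebo libraries overlapped (log2 difference -0.26, exact permutation p = 0.238). The ratio of the serine palmitoyltransferase subunits Sptlc2 and Sptlc1 differed by 0.48 on the log2 scale between HFD placebo and LFD fat and did not pass (exact permutation p = 0.0317, adjusted p = 0.0952). Its unadjusted exact permutation p was 0.0635 without any 1 of LFD 2, LFD 4, placebo 1, placebo 2, placebo 3 or placebo 5, and the difference was 0.31 without placebo 1. Sgms1 to Smpd1 differed by 0.47 between HFD placebo and LFD fat (exact permutation p = 0.0159, adjusted p = 0.0714), and by 0.43 within lane 5 (exact permutation p = 0.0714). A ratio shows unequal change and not which gene of the pair changed.

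**Figure D3:**
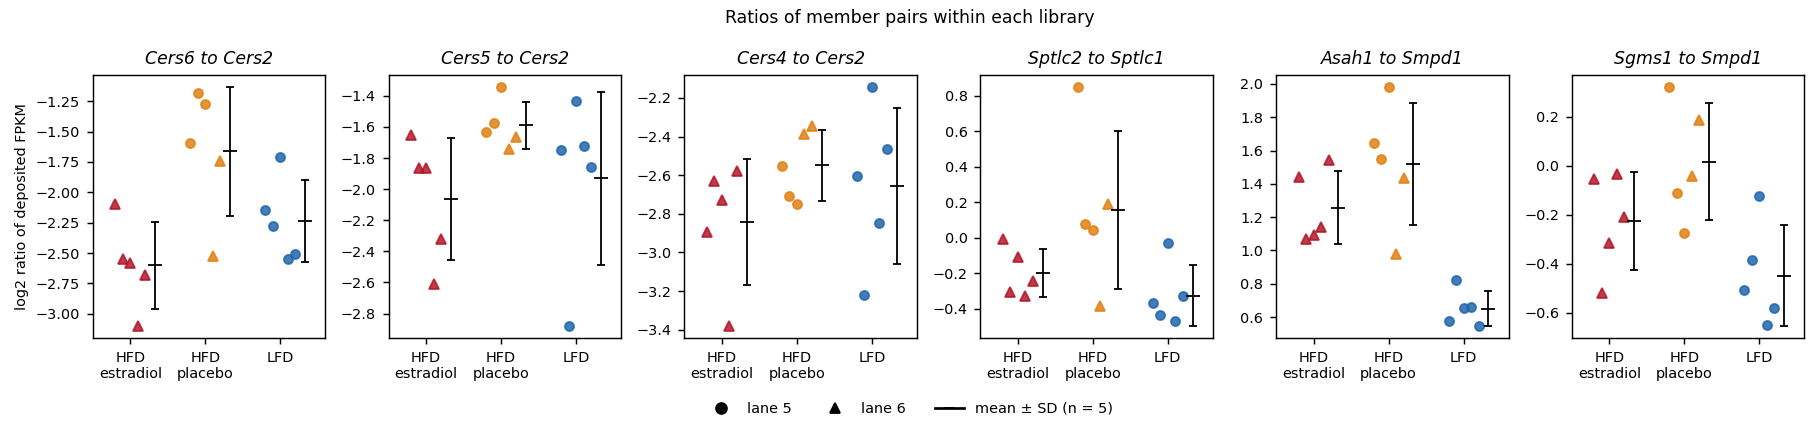
Log2 ratio of deposited FPKM (y axis) for 6 gene pairs in each library, with HFD estradiol, HFD placebo and LFD groups along the x axis, circles for lane 5, triangles for lane 6 and bars for mean ± SD (n = 5). Asah1 to Smpd1 lies higher in every library of both high-fat groups than in any LFD library, and Cers6 to Cers2 in placebo 4 lies among the HFD estradiol libraries.

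The wider pathway was read from 7 lists of other sphingolipid genes, 61 symbols of which 60 were in the files and 23 passed the filter. In HFD placebo against LFD fat 14 of the 23 rose, 1 fell and 8 did not pass, where 21.3% of all tested genes rose and 21.9% fell. In HFD estradiol against HFD placebo fat 12 fell, 0 rose and 11 did not pass, where 16.1% of all tested genes fell and 14.3% rose. For 7 of the 23, fewer than 5 libraries outside their highest group reached 1 scaled FPKM, so the filter admitted them mainly through that group. Cerk, B4galnt1 and A4galt were so admitted through HFD placebo, and Asah2 through LFD. Of the 16 others, 11 rose and 0 fell in HFD placebo against LFD fat, and 10 fell and 0 rose in HFD estradiol against HFD placebo fat. In HFD estradiol against LFD fat limma called none of the 23, of which 4 had an unadjusted p below 0.05. The genes of lysosomal glycosphingolipid breakdown include Psap and Hexa, which had the largest rises of the 23 in HFD placebo against LFD fat. Of 6 tested, 5 rose in HFD placebo against LFD fat (median log2 fold change 0.57 over the 6) and 5 fell in HFD estradiol against HFD placebo fat (median -0.56), with Gm2a, the activator protein for ganglioside breakdown, called in neither. Psap, the precursor of the saposins that present lipids to lysosomal hydrolases, averaged 41.7 ± 8.63 scaled FPKM in HFD estradiol, 95.2 ± 12.2 in HFD placebo and 32.3 ± 2.39 in LFD fat. Its log2 fold change was 1.52 for HFD placebo minus LFD (limma adjusted p = 7.2e-07) and -1.18 for HFD estradiol minus HFD placebo (limma adjusted p = 1.1e-05). Hexa, a hexosaminidase subunit, differed by 1.16 in HFD placebo minus LFD and by -0.92 in HFD estradiol minus HFD placebo, and all later pairs of folds keep this order. The galactosidase Glb1 differed by 0.42 and -0.42. Within lane 6 the estradiol calls of Hexa (-0.66, limma adjusted p = 0.0551) and Glb1 (-0.27, limma adjusted p = 0.156) were lost, and that of Psap was kept (-1.02, limma adjusted p = 0.0189). With FPKM as deposited all 3 were lost, with limma adjusted p of 0.0511 for Psap, 0.0863 for Hexa and 0.331 for Glb1.

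Cholesterol and sphingolipid transport gave 3 rises of 4 tested genes in HFD placebo against LFD fat and 3 falls in HFD estradiol against HFD placebo fat, beside 21.3% of all tested genes higher and 16.1% lower. Npc2, which carries cholesterol within the lysosome, averaged 8.00 ± 0.362 scaled FPKM in HFD estradiol, 14.5 ± 0.801 in HFD placebo and 9.06 ± 0.850 in LFD fat, with log2 fold changes of 0.63 and -0.79. Its partner Npc1 differed by 0.51 and -0.44, and the glycolipid transfer protein Gltp by 0.62 and -0.90. Within lane 6 Npc2 (-0.76, limma adjusted p = 0.00585) and Gltp (-0.64, limma adjusted p = 0.02004) were still called and Npc1 was not (-0.31, limma adjusted p = 0.0725). With FPKM as deposited Gltp was called (limma adjusted p = 0.0395), and Npc2 (limma adjusted p = 0.174) and Npc1 (limma adjusted p = 0.230) were not. Col4a3bp, the ceramide transfer protein that carries ceramide from the endoplasmic reticulum to the Golgi, was called in neither, at 0.028 (limma adjusted p = 0.723) and -0.050 (limma adjusted p = 0.564). Ugcg, which makes glucosylceramide from ceramide, was called in neither comparison, at 0.011 and -0.032. In the same list B4galnt1, which makes complex gangliosides, was called higher by 0.57 in HFD placebo than in LFD fat and lower in HFD estradiol than in HFD placebo fat, at -0.69 and, within lane 6, at -0.51 (limma adjusted p = 0.107). A4galt, which makes globosides, rose by 0.44 in HFD placebo against LFD fat and was at -0.20 (limma adjusted p = 0.162) in HFD estradiol against HFD placebo fat. The filter admitted B4galnt1 and A4galt mainly through HFD placebo libraries, which favoured high values in that group.

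Among the 6 tested ceramidases and sphingosine 1-phosphate enzymes, 3 rose and 1 fell in HFD placebo against LFD fat, and 3 fell in HFD estradiol against HFD placebo fat, beside the same shares of all tested genes. The filter admitted Cerk mainly through HFD placebo libraries and Asah2 mainly through LFD libraries. It thereby favoured high HFD placebo values for Cerk and high LFD values for Asah2 in these counts. None of the 3 falls was called within lane 6, where the differences were -0.50 for Cerk (limma adjusted p = 0.0671), -0.35 for Sgpl1 (limma adjusted p = 0.0862) and -0.16 for Sgpp1 (limma adjusted p = 0.440). With FPKM as deposited Cerk was called (limma adjusted p = 0.0292), and Sgpl1 (limma adjusted p = 0.287) and Sgpp1 (limma adjusted p = 0.452) were not. Cerk, which phosphorylates ceramide, averaged 0.806 ± 0.248 scaled FPKM in HFD estradiol, 1.84 ± 0.386 in HFD placebo and 0.616 ± 0.161 in LFD fat, with log2 fold changes of 0.81 (limma adjusted p = 2.5e-05) and -0.65 (limma adjusted p = 3.1e-04). Sgpl1, the lyase that ends the pathway, differed by 0.48 and -0.54, and the phosphatase Sgpp1 by 0.35 and -0.35. Asah2, the neutral ceramidase, was the gene that fell, by 0.19 (limma adjusted p = 0.0303), opposite to the acid ceramidase Asah1, and it turned to 0.42 with FPKM as deposited and to 0.027 at a constant FPKM sum. Its limma adjusted p was 0.0711 within lane 5 and 0.0548 with a replicate block. The call was also lost without LFD 1 (limma adjusted p = 0.0637), LFD 2 (0.0601), LFD 5 (0.0759), placebo 1 (0.0767), placebo 3 (0.0517) or placebo 5 (0.0699).

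The calls for Sgpp1 also depended on single libraries. In HFD placebo against LFD fat its limma adjusted p was 0.0750 without LFD 2, 0.0723 without LFD 4, 0.0510 without placebo 1, 0.0699 without placebo 2 and 0.0744 without placebo 3. In HFD estradiol against HFD placebo fat it was 0.0649 without placebo 1, 0.0868 without placebo 2, 0.0935 without placebo 3, 0.0539 without placebo 5, 0.0615 without estradiol 3, 0.0957 without estradiol 4 and 0.0768 without estradiol 5. Smpdl3a, a lysosomal relative of acid sphingomyelinase, rose by 0.42 in HFD placebo against LFD fat (limma adjusted p = 0.00758) and was at -0.31 in HFD estradiol against HFD placebo fat (limma adjusted p = 0.0515). Sptssa, a small subunit of serine palmitoyltransferase, Ormdl3, which restrains that enzyme, and the receptor S1pr1 were called in none of the 3 comparisons. Against the lane 6 placebo libraries alone, 5 of the 23 genes fell in HFD estradiol fat. Of the 12 called in the reported fit, 4 kept their call there and 8 lost it. With lane as a term 6 of the 12 kept their call.

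**Figure D4:**
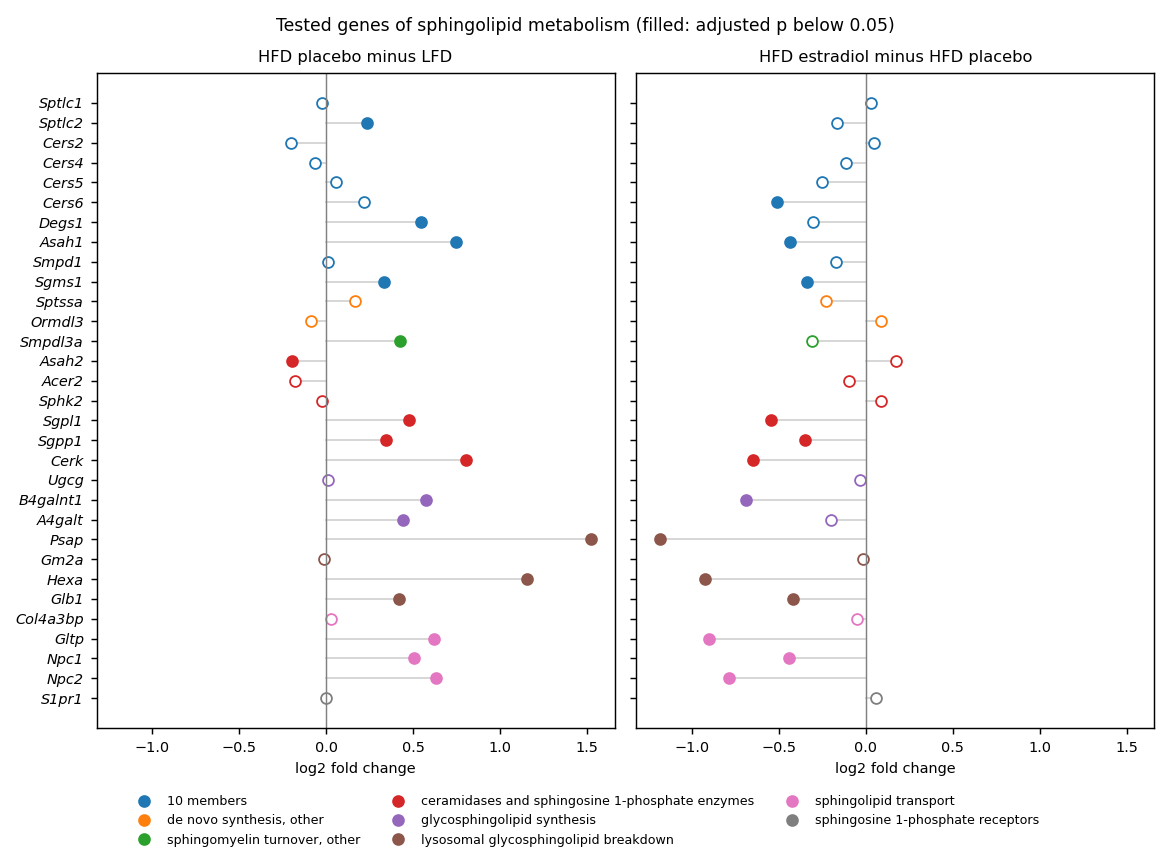
Log2 fold change (x axis, log2(scaled FPKM + 1)) of the 10 genes and of the other tested sphingolipid genes reported here (y axis, coloured by list) for HFD placebo minus LFD and HFD estradiol minus HFD placebo, with filled points for a limma adjusted p below 0.05. Psap lies farthest from 0 in both panels, at 1.52 and -1.18.

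The other 37 sphingolipid genes in the files were below the filter, and 25 of them could be tested when it was lowered to 0.1 scaled FPKM (12695 genes). In HFD placebo against LFD fat 9 rose and 1 fell, where 16.1% of the 12695 genes rose and 15.4% fell. In HFD estradiol against HFD placebo fat 1 rose and 9 fell, where 9.3% rose and 12% fell. In HFD estradiol against LFD fat limma called none of the 25, with 4 at an unadjusted p below 0.05, where 2.06% of the 12695 genes rose and 1.87% fell. The gene against the trend in the first 2 of these comparisons was Kdsr, the reductase after serine palmitoyltransferase. Kdsr averaged 0.581 in HFD placebo and 1.04 in LFD fat (log2 fold change -0.36, limma adjusted p = 6.7e-04), and 0.898 in HFD estradiol fat (0.27 against HFD placebo, limma adjusted p = 0.00994). Of the rises, Acer3, an alkaline ceramidase, averaged 1.10 in HFD placebo and 0.268 in LFD fat (log2 fold change 0.72, limma adjusted p = 2.3e-06). Gla, the lysosomal alpha-galactosidase, averaged 1.09 in HFD placebo and 0.201 in LFD fat (log2 fold change 0.80). These low genes were named after their values were seen.

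Markers of other cells moved with these genes. The summed scaled FPKM of 11 macrophage markers was 50.3 to 138 in HFD estradiol, 130 to 417 in HFD placebo and 37.9 to 101 in LFD libraries, and none of the 11 was listed at 0 throughout a group. Lyz2 had the highest mean of the 11 in every group (146 in HFD placebo) and so weighs most in that sum. Of 10 tested, 9 rose in HFD placebo against LFD fat, and 8 fell and 1 rose in HFD estradiol against HFD placebo fat. In HFD estradiol against LFD fat, where Asah1 separated the groups, 2 of the 10 rose, Cd68 by 0.90 and Mrc1 by 0.77. The sum of 12 adipocyte markers was 1762 to 2502 in HFD estradiol, 963 to 1611 in HFD placebo and 1898 to 2812 in LFD libraries. Fabp4 had the highest mean of the 12 in every group (745 in HFD placebo) and so weighs most in that sum. Of these 12, 11 fell and 1 rose in HFD placebo against LFD fat, 10 rose and 1 fell in HFD estradiol against HFD placebo fat, and 2 fell in HFD estradiol against LFD fat. The part of macrophage and adipocyte content in the changes of Asah1, Cers6, Degs1, Sgms1 and the lysosomal genes was not tested.

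Single libraries are given next only as examples, and no link between these genes and cell content was tested. Placebo 4 had the lowest Asah1 (5.85), Cers6 (1.00) and Sptlc2 (0.992) of the HFD placebo libraries and the highest Smpd1 (2.97). It had the lowest macrophage sum of that group (130), the lowest Cd68 (16.3) and the highest adipocyte sum (1611). This library was also on lane 6 and had the largest scaling factor of all (3.23). Estradiol 1, the HFD estradiol library with the highest Cers6 (1.24), Cers5 (1.68) and Sptlc2 (1.36), had the highest macrophage sum of its group (138) and the lowest adipocyte sum (1762). The lowest Degs1 of that group (5.94) was in estradiol 1 as well. Estradiol 5, with a macrophage sum of 58.9, had the highest Degs1 (10.0) and the highest Asah1 (5.64) of the group. Placebo 3 had the highest macrophage sum of all (417), the highest Asah1 (9.05) and the lowest Sgms1 of its group (1.89). Cd68 was highest in placebo 2 (43.9), against 35.5 in placebo 3. The sums of 8 endothelial markers differed less, from 19.9 to 23.7 in HFD estradiol, 18.8 to 26.6 in HFD placebo and 21.6 to 25.01 in LFD libraries, and 2 of the 8 fell in HFD placebo against LFD fat and 1 rose in HFD estradiol against HFD placebo fat. Of 8 progenitor and fibroblast markers, 4 rose in HFD placebo against LFD fat, 3 rose and 1 fell in HFD estradiol against HFD placebo fat, and 3 rose in HFD estradiol against LFD fat. Of 8 T and B cell markers 2 could be tested, both of them B cell genes. Both fell in HFD placebo against LFD fat and 1 fell in HFD estradiol against LFD fat. No T cell marker passed the filter.

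For the 3 genes called with an absolute log2 fold change of at least 0.5, the tested genes with the most similar profile over the 15 libraries were sought among 2544 with a mean of at least 2 scaled FPKM. The measure was the root mean square difference of centred log2 values. Asah1, whose own SD on that scale was 0.333, was nearest to Skap2 (0.108), Scpep1 (0.112) and Tpm3 (0.116). Scpep1 encodes a serine carboxypeptidase, Skap2 an adaptor protein and Tpm3 a tropomyosin. Degs1 (SD 0.282) was nearest to Dap (0.127), Pqlc3 (0.141) and Pcyox1 (0.144), and Cers6 (SD 0.269) to Tpt1 (0.137), Atp6v1c1 (0.141) and Capzb (0.142). The distance of the nearest gene was thus smaller relative to the gene's own SD for Asah1 than for Cers6.

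The 10 genes are all protein coding in GENCODE vM21 on GRCm38. Asah1 lies on chromosome 8 (41340197 to 41374773, minus strand), Degs1 on chromosome 1 (182275772 to 182282804, minus strand), Cers6 on chromosome 2 (68861441 to 69114282, plus strand) and Sgms1 on chromosome 19 (32122727 to 32389714, minus strand). Sptlc2 lies on chromosome 12 (87305058 to 87388355, minus strand). Asah1, Degs1, Smpd1 and Sptlc1 overlap no other annotated gene. Cers2 overlaps the protein coding gene Setdb1 on the opposite strand, and Cers6 overlaps 6 unconfirmed transcript entries on its own strand, whose reads could not be told apart from its own here. Libraries were stranded, but whether counting used the strand could not be learned from the sources used here.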

How the data were processed

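Total RNA with an integrity number above 7 from 15 fat samples gave stranded Illumina libraries after removal of ribosomal RNA, per the labels' protocols. Alignment to mm10 with STAR and quantification with Cufflinks are named in the submitters' processing notes, without versions. The sources used here give neither the annotation nor the strand setting. FPKM by gene symbol were deposited by the authors, 1 file per library. No read counts were used, and fragment numbers were estimated from the steps between low FPKM values, of which 54.7% to 66.0% lay within 2% of a whole multiple. These are estimates and give no interval.

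FPKM were divided by median-of-ratios factors (0.480 to 3.23), taken over the 5874 genes detected in all libraries whose FPKM averaged 1 or more. The 5625 genes with at least 1 scaled FPKM in at least 5 libraries were tested as log2(scaled FPKM + 1), which understates the change of low genes, with limma 3.58.1 in R 4.3.3 (trend, robust). All 15 libraries entered with group as the only factor, and p-values were adjusted by Benjamini and Hochberg in each of 3 comparisons. Ratios were tested by exact two-sided permutation in scipy 1.17.1. The procedure was tested on simulated data. Groups and mouse numbers come from the labels, and same-numbered mice were not paired. Lanes come from the names of the deposited files.

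The 10 genes and all lists were chosen with earlier results of these data known. Named genes were the 10, up to 4 tested genes with the smallest adjusted p in each list and comparison, and the most similar profiles. Promoters are from RefSeq, positions from GENCODE vM21. Emr1 stood for Adgre1. Some genes of the lists are counted but not reported by name here.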

Additional observations from a re-analysis of the deposited data

Results flagged for a closer look

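A library that stood far from the 4 others of its group (the gap to its nearest neighbour above 0.71 of the group's range, Dixon's 95% value for 5) was found in 5 of 48 groups of values examined, and chance flags about 1 in 20 groups. Sptlc1 stood at 0.905 scaled FPKM in placebo 1, where the nearest other placebo library was at 1.29. Cers2 stood at 7.53 in estradiol 4, with the nearest other HFD estradiol library at 5.49, and at 5.31 in LFD 3, with the nearest other LFD library at 6.75. Cers5 stood at 0.956 in LFD 2, with the nearest other at 1.87. LFD 2 had the lowest estimated depth of all libraries, 20.6 fragments for a 2 kb transcript at 1 scaled FPKM. Cers6 stood at 1.24 in estradiol 1, with the nearest other HFD estradiol library at 0.930.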

How the results depend on the processing

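Among the 10 genes, the calls of Asah1 and Degs1 in HFD placebo against LFD fat held under every alternative run, and all 3 calls in HFD estradiol against HFD placebo fat kept their direction. In HFD placebo minus LFD, the 4 members called became 8 with FPKM as deposited, and the 2432 genes called became 3998 with the filter at 0.1 and 3908 with no filter. In every comparison these filter settings tested 12695 and 18880 genes in place of 5625, so such counts have different totals. The call of Sptlc2 was lost with no filter and with only the 2 groups compared. Higher and lower calls were 3016 and 18 with FPKM as deposited and 2107 and 194 at a constant FPKM sum, in place of 1199 and 1233, where the median of all genes moved to 0.77 and 0.29. In HFD estradiol minus HFD placebo, members called were 0 with FPKM as deposited and 1 at a constant sum, with lane as a term and within lane 6. Genes called there were 276, 830, 711 and 681 in that order, 2710 with the filter at 0.1 and 2607 with no filter, and other sphingolipid genes called were 3 as deposited, 6 with lane as a term and 5 within lane 6. Higher and lower calls were 13 and 263 as deposited and 260 and 570 at a constant sum, with medians of -0.27 and -0.032. In HFD estradiol minus LFD, members called were 2 at a constant sum (Asah1 and Degs1), with only the 2 groups compared and without both lane 6 placebo libraries (Asah1 and Cers6), and 1 with lane as a term and 1 without trend and robust moderation (Asah1). Genes called there were 39 as deposited, all higher, and 161 with lane as a term, higher and lower calls at a constant sum were 555 and 29, and other sphingolipid genes called were 2 at a constant sum and 1 with lane as a term.

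Signs that reversed were all of values not called in the reported fit, except that of Asah2. With FPKM as deposited, HFD placebo minus LFD was 0.67 for Sptlc1, 0.81 for Cers2, 0.59 for Cers4 and 0.42 for Asah2, and at a constant sum 0.23, 0.19, 0.17 and 0.027. Smpd1 was -0.037 with lane as a term, within lane 5 and without both lane 6 placebo libraries. HFD estradiol minus HFD placebo was -0.24 for Sptlc1 and -0.28 for Cers2 as deposited, -0.0085 and -0.0065 at a constant sum, and -0.014 and -0.022 with lane as a term and within lane 6. HFD estradiol minus LFD as deposited was 0.54 for Cers2, 0.19 for Cers4, 0.28 for Cers5, 0.16 for Cers6, 0.39 for Smpd1 and 0.50 for Sgms1. At a constant sum it was 0.19 for Cers2, 0.0033 for Cers4, 0.040 for Cers5, 0.12 for Smpd1 and 0.25 for Sgms1, and with lane as a term -0.068 for Sptlc1 and 0.10 for Cers6. The Cers4 to Cers2 ratio was -0.015 within lane 5 and Asah1 to Smpd1 was 0.052 within lane 6. The cause of these changes was not tested beyond the shift of the median.

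Leaving out each library in turn gave 2157 to 2506, 1415 to 1842 and 300 to 515 genes called in the 3 comparisons, 3 to 5, 3 to 4 and 0 to 2 members, and 13 to 16, 11 to 14 and 0 to 1 other sphingolipid genes. Ranges that crossed 0 were -0.066 to 0.094 for Cers5, -0.056 to 0.043 for Smpd1 and -0.062 to 0.032 for Sptlc1 in HFD placebo minus LFD, -0.031 to 0.048 for Sptlc1 and -0.037 to 0.074 for Cers2 in HFD estradiol minus HFD placebo, and -0.056 to 0.055 for Sgms1 and -0.035 to 0.031 for Sptlc1 in HFD estradiol minus LFD. The Cers4 to Cers2 ratio ran from -0.034 to 0.24 in HFD placebo minus LFD and Cers5 to Cers2 from -0.37 to 0.0043 in HFD estradiol minus LFD. Deviations of same-numbered mice correlated from -0.21 to 0.36, so the numbers were not read as pairs. With the replicate number as a block, 2429, 1690 and 431 genes and 4, 3 and 0 members were called. The settings for the other sphingolipid genes and the fit without both lane 6 placebo libraries were chosen after seeing the data.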
